A study of Mus musculus with 9 samples.

Results

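Collagen chain genes were followed in mouse brain tumor stem cells in which Gpd1, the gene of cytosolic glycerol-3-phosphate dehydrogenase, had been targeted with Cas9. The members were all genes of the normalized table whose symbol consists of Col, a type number, the letter a and a chain number. This gave 41 of the 21899 genes, and 3 further collagen genes of the annotation were not analysed here. By structural class there were 10 fibrillar, 6 basement membrane, 5 beaded filament, 9 FACIT (fibril-associated collagens with interrupted triple helices) and 4 transmembrane collagen genes, and 7 of other kinds.

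The 9 poly(A) RNA libraries formed 3 groups of 3. Controls were brain tumor stem cells, called BTSC in the labels. The other groups held BTSC with a Gpd1 knockout (KO) made with sgRNA1 or sgRNA2, which followed transfection with a lentiCRISPRv2 vector, puromycin selection and expansion of picked colonies that each grew from a single cell. Per the labels the knockout was checked by Western blot and DNA sequencing. Strain, age, tumor genotype and the treatment of the controls (transfection, selection, picking) were not given in the sources used here, nor was it given whether the libraries of a group were separate cultures or colonies. The sample titles give the KO libraries of a group non-consecutive numbers and the controls consecutive ones, without saying what the numbers count. If the libraries of a group were not separate cultures or colonies, the p-values measure only a spread that may be technical.

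Library totals of normalized read counts ran from 39781901 to 42975283. The median SD of log2 values over the tested genes was 0.086 in control, against 0.32 with sgRNA1 and 0.34 in sgRNA2 KO, so the controls were far more alike than the KO libraries. Gpd1 stood at 25106 to 26566 in the controls and at 5.21% to 82.6% of their mean in the KO libraries, with sgRNA1 KO replicate 3 the highest. A small edit need not lower the transcript, so this level does not check the edit itself. That library and sgRNA2 KO replicate 1 stood nearest the controls over all genes. Of the neural and glioma stem cell markers, Olig2 (26003 to 39961) and Fabp7 (73051 to 140403) were high in all 9 libraries. Nes fell (mean 42539 in control and 17410 in KO, adjusted p = 0.00683 in limma) and Sox2 rose (7704 and 15184, adjusted p = 0.00851 in limma). The other 6 of the 8 markers did not pass, and Prom1, which encodes CD133, lay at only 3 to 31. Of the 8 pericyte and fibroblast markers looked for, 5 were in the table. Their summed level was 2200 to 2364 in control and 33 to 367 in KO. Nearly all of it was Acta2, and Pdgfrb did not exceed 4 in any library. The 2 tested markers both fell, Acta2 (log2 fold change -3.90, adjusted p = 0.00238 in limma) and Rgs5 (-4.25, adjusted p = 0.000326 in limma). Rgs5 counted 54, 66 and 75 in control and 1 to 5 in KO. Endothelial markers (5 of 7 in the table) summed to 592 to 647 in control and 98 to 260 in KO, mostly Flt1 in control. Flt1 (log2 fold change -3.62, adjusted p = 0.000878 in limma) and Kdr (-1.46, adjusted p = 0.0421 in limma) fell. Tek, with a mean of 44 in control and 78 in KO (log2 fold change 0.58), did not pass, and Pecam1 lay at 5 to 20. Microglia markers (4 of 7) summed to 9 to 32 in all libraries. The pericyte and endothelial sums were lower in the same libraries as the collagen genes that fell below, and their part in those results was not tested. In bulk RNA, fewer cells of a type and less RNA per cell cannot be told apart.

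Collagens are trimers whose chains wind into a triple helix. Fibrillar collagens form the fibrils of connective tissue, FACIT collagens sit on their surface, type IV collagens build the sheet of basement membranes, and type VI collagen forms beaded microfilaments around cells. In the brain, collagen is found mainly in the meninges and the basement membranes of vessels, and glioma cells can add to it. Several collagen genes lie side by side. The type IV genes form pairs that are transcribed away from each other from neighbouring starts, and Col6a1 and Col6a2 lie on the same strand.

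In mm10 (GRCm38, GENCODE M21), Col6a1 spans chr10:76708792-76726168 and Col6a2 chr10:76595762-76623630, both on the minus strand and 85.2 kb apart. Col4a1 spans chr8:11198423-11312826 (minus) and Col4a2 chr8:11312805-11449287 (plus), so that their starts overlap by 22 bases. Col4a4 spans chr1:82448423-82586849 (minus) and Col4a3 chr1:82586921-82722059 (plus), with 71 bases between. Col4a6 spans chrX:141165403-141474076 (minus) and Col4a5 chrX:141475385-141689234 (plus), with 1308 bases between.

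The sequences ahead of these genes are shown because the members of each pair could be compared in the same libraries. They are from RefSeq (GRCm38.p6), read 5′ to 3′ on the strand of the named gene, and hold no transcribed base of that gene in GENCODE M21. Capitals mark motifs found on either strand, of which none contains another. The GC box was searched as GGGCGG. The CCAAT box was searched by the letters of its name. The TATA box was searched as TATAAA. The stretch before Col6a1 is chr10:76726169-76726294 (126 bases, minus strand), that before Col6a2 is chr10:76623631-76623880 (250 bases, minus strand), and the whole gap between the starts of Col4a4 and Col4a3 is chr1:82586850-82586920 (71 bases, minus strand). The stretches before Col4a5 and Col4a6 are chrX:141475169-141475384 (216 bases, plus strand) and chrX:141474077-141474326 (250 bases, minus strand).
Before Col6a1: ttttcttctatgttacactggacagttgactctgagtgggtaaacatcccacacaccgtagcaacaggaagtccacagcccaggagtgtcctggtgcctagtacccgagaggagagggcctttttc
Before Col6a2: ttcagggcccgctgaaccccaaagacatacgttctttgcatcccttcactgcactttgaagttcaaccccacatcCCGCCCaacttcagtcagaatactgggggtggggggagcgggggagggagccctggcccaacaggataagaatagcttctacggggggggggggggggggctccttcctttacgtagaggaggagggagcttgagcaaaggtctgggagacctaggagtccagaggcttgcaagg
Between Col4a4 and Col4a3: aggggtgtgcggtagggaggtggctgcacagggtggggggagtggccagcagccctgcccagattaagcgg
Before Col4a5: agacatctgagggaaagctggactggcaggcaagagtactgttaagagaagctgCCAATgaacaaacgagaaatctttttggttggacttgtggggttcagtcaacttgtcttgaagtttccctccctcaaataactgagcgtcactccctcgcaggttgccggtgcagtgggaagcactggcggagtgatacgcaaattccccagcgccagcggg
Before Col4a6: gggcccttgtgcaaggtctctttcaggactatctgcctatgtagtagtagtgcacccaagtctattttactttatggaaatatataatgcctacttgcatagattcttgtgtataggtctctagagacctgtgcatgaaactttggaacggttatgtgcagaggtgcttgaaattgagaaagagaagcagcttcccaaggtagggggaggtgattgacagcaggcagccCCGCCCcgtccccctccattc

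The stretches before Col6a2 and Col4a6 held 1 GC box each and that before Col4a5 held 1 CCAAT box, while the other stretches held none of the 3 motifs. Over the same window positions, 32.7% of all 32851 RefSeq promoter windows held a GC box (Col6a2 and Col4a6) and 30.5% a CCAAT box (Col4a5). In whole windows of 300 bases, a GC box was found in 20 of the 35 windows of 32 matched collagen genes (57.1%, against 35.7% of all windows). A CCAAT box was found in 12 (34.3%, against 37.4%) and a TATA box in 5 (14.3%, against 13.6%). The stretch between Col4a4 and Col4a3 had the highest G and C content of those printed (69%), and that before Col4a6 the lowest (47.6%).

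Of the 41 collagen genes, 29 averaged 10 or more normalized read counts across the 9 libraries and were tested, and 12 fell under this filter. In KO against control, 9 of the 29 were higher (31%, against 19.1% of all 15827 genes tested) and 8 were lower (27.6%, against 20.2%) at an adjusted p under 0.05 in limma. The genes that rose were Col4a3, Col9a1, Col9a2, Col9a3, Col20a1, Col23a1, Col25a1, Col27a1 and Col28a1, and those that fell were Col4a6, Col5a1, Col5a3, Col6a1, Col6a2, Col12a1, Col16a1 and Col18a1. All 6 KO libraries lay above all 3 controls for 7 of the 29 (24.1%, against 21.1% of all genes) and below them for 8 (27.6%, against 23.8%), which is near the background. The median log2 fold change of the tested members was 0.54, against -0.01 for all genes, and 16 of 29 (55.2%) had a fitted difference of at least 2-fold in either direction, whether or not it passed, against 21.6% of all genes. The counts became 5 higher and 5 lower without control replicate 2, and 5 and 5 without control replicate 3. Calls over all genes, in both directions, fell from 6227 to 2777 and 3006 in these settings.

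**Figure D1:**
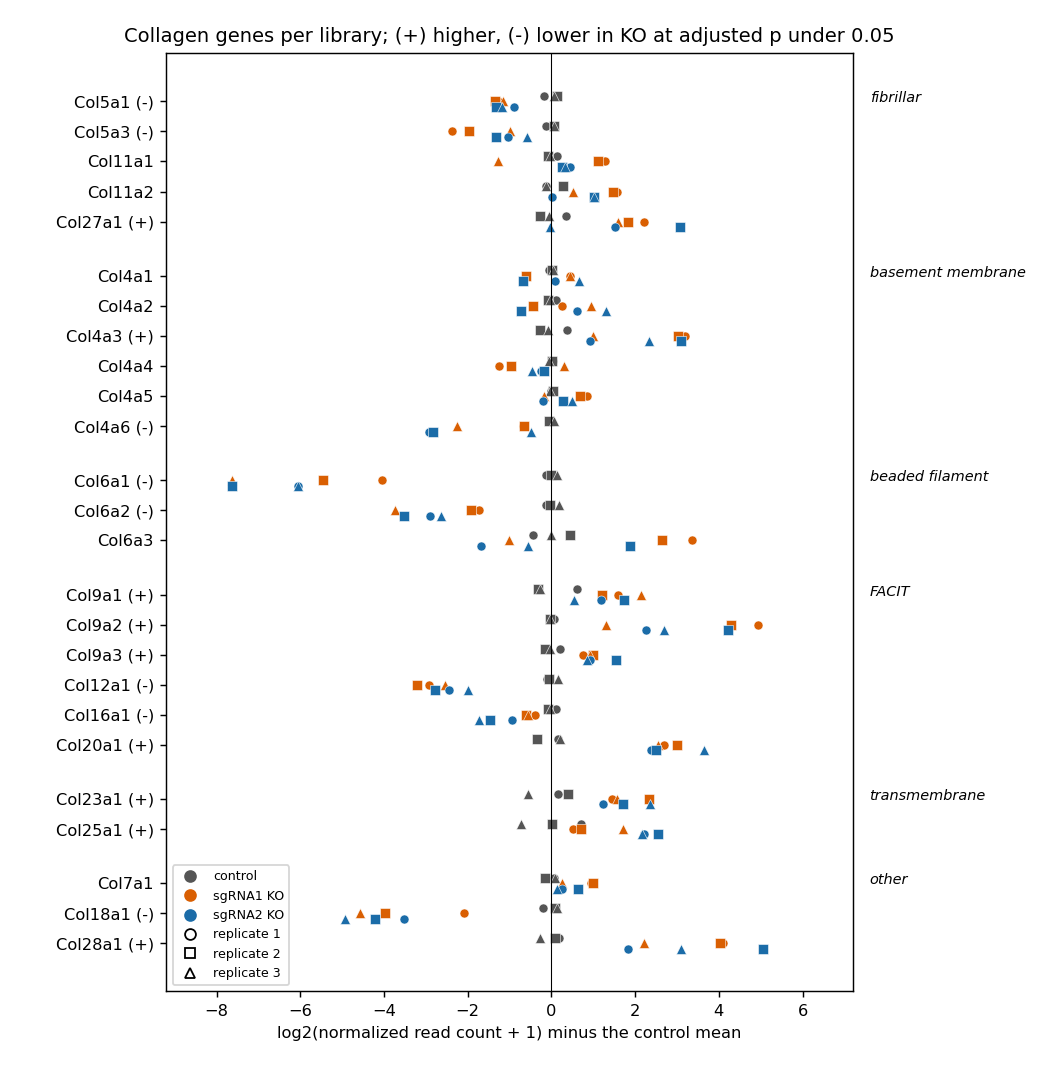
Log2(normalized read count + 1) minus the control mean (x axis) of the 25 collagen genes given in full, by structural class, with 1 point per library (color for group, shape for replicate). Col6a1 lies far left of the controls in all 6 KO libraries, while Col6a3 has KO libraries on both sides of 0.

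Col6a1, of type VI collagen, had the largest fall among the members. The chains of type VI collagen, encoded by Col6a1, Col6a2 and Col6a3, assemble into 1 monomer. Col6a1 had normalized read counts of 365, 395 and 437 in control, 23, 8 and 1 with sgRNA1 and 5, 1 and 5 with sgRNA2. The groups lay far apart, and sgRNA1 KO replicate 1 was the highest of the KO libraries. The KO mean was 1.80% of the control mean, and it had a log2 fold change of -6.15 (SE 0.71, adjusted p = 0.000668 in limma).

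Col6a2 counted 157, 167 and 195 in control, 51, 45 and 12 with sgRNA1 and 22, 14 and 27 with sgRNA2. It too fell in 6 of 6 KO libraries without overlap, but by less, with a log2 fold change of -2.74 (SE 0.45, adjusted p = 0.00241 in limma). Per kb of exon, Col6a1 was 4.26 to 4.50 times Col6a2 in the controls and 0.136 to 0.857 times in the KO libraries. The size of this ratio depends on the merged exon lengths of all annotated transcripts (4.38 kb for Col6a1 and 8.33 kb for Col6a2). The order of the chains turned in every KO library, in the counts as well as per kb. Exons of Col6a1 and Col6a2 overlapped no other annotated gene. Type VI collagen is known to be made in pericytes and fibroblasts. The summed markers of these cells were 2200 to 2364 in control and 33 to 367 in KO. Nearly all of this sum was Acta2, and Pdgfrb did not exceed 4 in any library. Rgs5, the other tested marker, counted 54 to 75 in control and 1 to 5 in KO. The part of such cells in the fall was not tested.

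Col6a3, which encodes the largest of these chains, did not pass the test and spread widely over the KO libraries. It counted 23, 43 and 31 in control, 330, 200 and 15 with sgRNA1 and 9, 117 and 21 with sgRNA2. It was above every control in sgRNA1 KO replicates 1 and 2 and in sgRNA2 KO replicate 2, and below every control in the other 3 KO libraries. Its log2 fold change of 0.77 (SE 1.09, adjusted p = 0.596 in limma) missed the threshold in the pooled comparison, as did that with sgRNA1 (1.66, adjusted p = 0.285 in limma). Without sgRNA1 KO replicate 3 the value with sgRNA1 was 2.996 and passed (adjusted p = 0.0205 in limma). Leaving out that library, which was below the controls, favours a rise, and calls over all genes with sgRNA1 went from 5699 to 7900. Per kb, Col6a3 was 0.023 to 0.040 times Col6a1 in the controls and 0.659 to 42.8 times in the KO libraries. The KO ratios divide by Col6a1 counts of 1 to 23 and are imprecise. The highest was that of sgRNA2 KO replicate 2, where Col6a1 counted 1. Of the chains that can take its place, Col6a4 and Col6a5 lay at 0 to 7 in all libraries and were not tested.

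**Figure D2:**
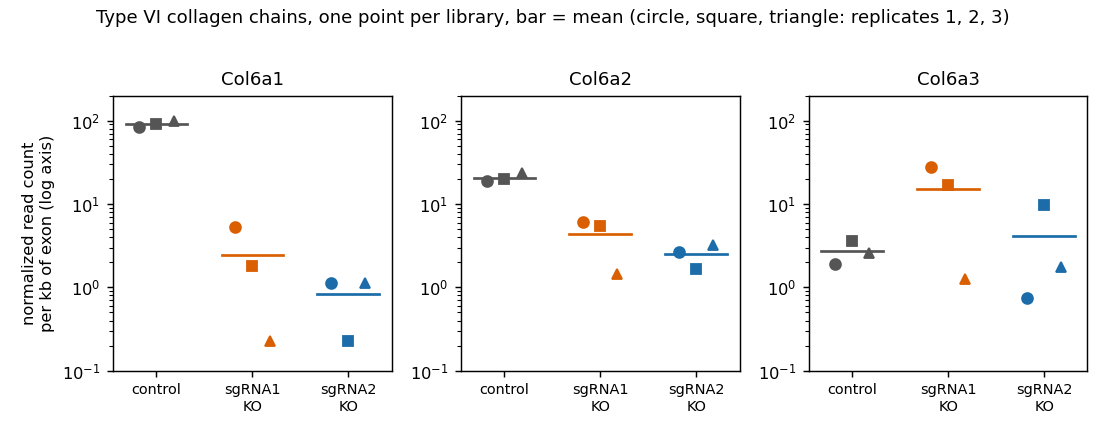
Normalized read count per kb of exon (log axis) of the type VI collagen genes in control, sgRNA1 KO and sgRNA2 KO, with 1 point per library and a bar at the mean (n = 3). Col6a1 and Col6a2 lie lower in every KO library than in every control, and Col6a3 spreads above and below the controls.

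Among the basement membrane collagens, 1 member passed the test and the other did not in 2 of the 3 head-to-head pairs, a difference within pairs that was itself not tested. Col4a1 and Col4a2 encode the chains of the common type IV trimer, Col4a3, Col4a4 and Col4a5 those of the trimer known from the kidney and cochlea, and Col4a6 joins Col4a5 in a further trimer. Col4a5 had the highest level per kb of all members in every group, at 644 ± 11.7 in control and 834 ± 247 in KO (SD, n = 3 and 6).

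Col4a5 counted 4321, 4411 and 4254 in control, 7829, 6914 and 3801 with sgRNA1 and 3741, 5261 and 6071 with sgRNA2. In 4 KO libraries it was above the controls, and in sgRNA1 KO replicate 3 and sgRNA2 KO replicate 1 it was below them. The log2 fold change of 0.32 (SE 0.24, adjusted p = 0.301 in limma) missed the threshold, and without these 2 libraries it was 0.58 and passed (adjusted p = 0.0118 in limma). Leaving out the 2 libraries below the controls favours a rise of Col4a5, and calls over all genes went from 6227 to 7649. Its neighbour Col4a6 counted 1739, 1695 and 1851 in control, 1099, 1109 and 368 with sgRNA1 and 231, 246 and 1253 with sgRNA2. All KO libraries lay below all controls, from 231 to 1253. Its log2 fold change of -1.64 (SE 0.59) was only just past the threshold (adjusted p = 0.0494 in limma). It missed the threshold without any 1 of the 3 controls (adjusted p in limma = 0.116, 0.125 and 0.133 without replicates 1, 2 and 3) and without sgRNA1 KO replicate 3 (0.0745) or sgRNA2 KO replicate 1 (0.0666) or 2 (0.0836). The per kb ratio of Col4a5 to Col4a6 was 2.73 to 3.09 in the controls and 5.75 to 25.4 in the KO libraries.

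Col4a3 counted 10, 6 and 7 in control, 77, 68 and 16 with sgRNA1 and 15, 72 and 42 with sgRNA2. It rose in 6 of 6 KO libraries from a low level (log2 fold change 2.26, SE 0.57, adjusted p = 0.0134 in limma), and missed the threshold without control replicate 2 (0.0629) or 3 (0.0549). Exons of C430014B12Rik overlap 563 bases of Col4a3 exons on the opposite strand, and reads of the genes could not be told apart if strand was not used in counting. Col4a4, whose start lies 71 bases away, counted 115, 112 and 107 in control, 46, 56 and 137 with sgRNA1 and 93, 99 and 80 with sgRNA2. The groups overlapped, with sgRNA1 KO replicates 1 and 2 lowest, and the log2 fold change of -0.47 (SE 0.32, adjusted p = 0.260 in limma) missed the threshold. With sgRNA1 it was -0.65 and also missed (adjusted p = 0.195 in limma). Without sgRNA1 KO replicate 3, the library above the controls, it was -1.12 and passed (adjusted p = 0.00466 in limma). Leaving out that library favours a fall, and calls over all genes with sgRNA1 went from 5699 to 7900. Col4a3 was 0.057 to 0.093 times Col4a4 per kb in the controls and 0.124 to 1.78 times in the KO libraries.

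Col4a1 counted 464, 485 and 494 in control, 654, 316 and 654 with sgRNA1 and 511, 302 and 756 with sgRNA2. Col4a2 counted 277, 241 and 249 in control, 306, 189 and 492 with sgRNA1 and 389, 155 and 630 with sgRNA2. Both genes were below every control in replicate 2 of each KO group and above every control in the other 4 KO libraries. Neither passed the test (log2 fold change 0.06, SE 0.31, adjusted p = 0.889 for Col4a1 and 0.33, SE 0.41, adjusted p = 0.548 for Col4a2, in limma). The per kb ratio of Col4a1 to Col4a2 stayed between 1.49 and 1.79 in the controls and 1.06 and 1.90 in the KO libraries, the narrowest range of the 3 head-to-head pairs.

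**Figure D3:**
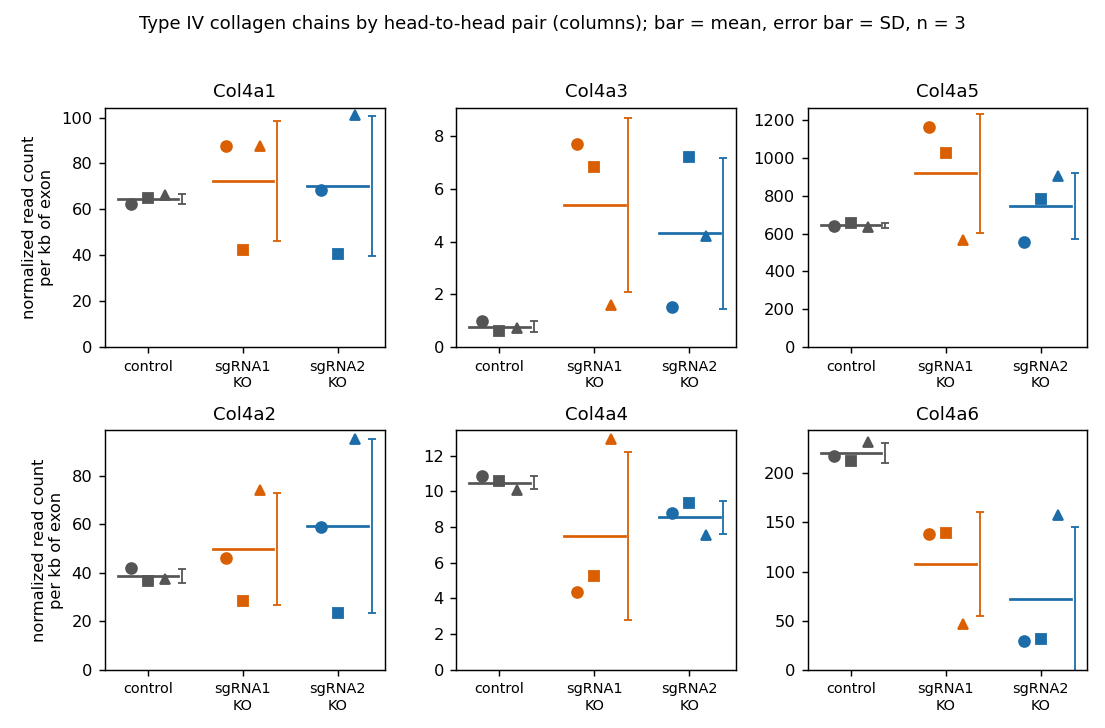
Normalized read count per kb of exon (linear axes from 0, a different scale in each panel) of the type IV collagen genes, with each head-to-head pair in 1 column, 1 point per library, a bar at the mean and SD error bars (n = 3); the lower SD bar of Col4a6 in sgRNA2 KO ends at the axis. The KO points of Col4a6 all lie below its controls, while those of Col4a5 lie on both sides.

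Of the fibrillar collagens, the type V genes Col5a1 and Col5a3 fell, and Col5a2 lay at 0 to 4. Type V collagen lies within fibrils and limits their diameter. Col5a1 counted 1285, 1600 and 1517 in control, 605, 576 and 659 with sgRNA1 and 788, 587 and 640 with sgRNA2. The KO libraries were close together and all below the controls, with a log2 fold change of -1.19 (SE 0.14, adjusted p = 0.000641 in limma). Col5a3 counted 919, 1046 and 1039 in control, 193, 254 and 499 with sgRNA1 and 485, 398 and 669 with sgRNA2. It fell in 6 of 6 KO libraries (log2 fold change -1.38, SE 0.35, adjusted p = 0.0139 in limma), most in sgRNA1 KO replicates 1 and 2, and missed without control replicate 2 (0.0602) or 3 (0.0571). Exons of Col5a1 overlap up to 113 bases of other annotated genes on the opposite strand.

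Col11a1, which encodes a chain of the related type XI collagen, had the highest mean level per kb of the fibrillar genes in control and in KO. It counted 2573, 2221 and 2301 in control, 5723, 5080 and 973 with sgRNA1 and 3227, 2800 and 2945 with sgRNA2. Only sgRNA1 KO replicate 3 was below the controls, and the other 5 KO libraries were above them. Pooled over the guides, its log2 fold change of 0.35 (SE 0.46, adjusted p = 0.565 in limma) missed the threshold. With sgRNA1 alone it was 0.37 (adjusted p = 0.623 in limma), and without replicate 3 of that group it was 1.19 (adjusted p = 0.000716 in limma). Leaving out this replicate, the library below the controls, favours a rise, and calls over all genes with sgRNA1 went from 5699 to 7900. Without that library Col11a1 also differed between the guides, being lower in sgRNA2 KO (log2 fold change -0.85, adjusted p = 0.0411 in limma). With all libraries the difference between the guides was -0.03 (adjusted p = 0.989 in limma). It also missed the threshold when sgRNA2 KO replicate 1 was left out together with sgRNA1 KO replicate 3.

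Col11a2 counted 35, 47 and 35 in control, 117, 108 and 56 with sgRNA1 and 39, 79 and 79 with sgRNA2. Its groups overlapped through sgRNA2 KO replicate 1, and its log2 fold change of 0.93 (SE 0.34, adjusted p = 0.0538 in limma) missed the threshold. It passed with a spread per group (adjusted p = 0.0141 in limma). Without sgRNA1 KO replicate 3 (0.0465) or sgRNA2 KO replicate 1 (0.0134), its lowest KO libraries, it also passed. Col27a1, a fibrillar collagen of cartilage, counted 129, 84 and 97 in control, 475, 364 and 308 with sgRNA1 and 295, 858 and 100 with sgRNA2. It rose (log2 fold change 1.70, SE 0.54, adjusted p = 0.0310 in limma), although sgRNA2 KO replicate 3 stayed among the controls. Col27a1 missed the threshold without control replicate 1 (0.0620), 2 (0.114) or 3 (0.0968) and without sgRNA1 KO replicate 1 (0.0555) or 2 (0.0511). Col1a1, the main chain of type I collagen, lay at only 27 to 42 in control and 17 to 31 in KO and missed the threshold (log2 fold change -0.69, adjusted p = 0.0861 in limma).

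The FACIT collagens moved both ways. All 3 type IX genes, whose chains form 1 trimer best known from cartilage fibrils, rose. Col9a2 counted 15, 14 and 14 in control, 467, 301 and 37 with sgRNA1 and 72, 283 and 98 with sgRNA2. Every KO library was above the controls, though they spread from 37 to 467, and it had a log2 fold change of 3.28 (SE 0.73, adjusted p = 0.00790 in limma). Col9a3, the highest of the 3 per kb, counted 622, 486 and 525 in control, 916, 1083 and 1026 with sgRNA1 and 1022, 1591 and 973 with sgRNA2. Its rise was smaller and more even (log2 fold change 0.998, SE 0.18, adjusted p = 0.00358 in limma). Col9a1 counted 104, 54 and 56 in control, 207, 158 and 302 with sgRNA1 and 157, 228 and 100 with sgRNA2. It rose (log2 fold change 1.40, SE 0.35, adjusted p = 0.0127 in limma), with sgRNA2 KO replicate 3 just under control replicate 1, and missed without control replicate 2 (0.0671) or 3 (0.0629). Per kb, Col9a2 was 0.030 to 0.036 times Col9a3 in the controls and 0.045 to 0.635 times in the KO libraries. Exons of Col9a3 overlap 234 bases of Tcfl5 exons on the opposite strand.

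Col20a1 counted 27, 19 and 28 in control, 162, 200 and 147 with sgRNA1 and 131, 141 and 315 with sgRNA2. It rose 7.41-fold on the means, without overlap of the groups (log2 fold change 2.79, SE 0.29, adjusted p = 0.000477 in limma). On the same strand, exons of Col20a1 and of BX649560.1 overlap by 79 bases. Col12a1, whose product binds type I fibrils, counted 329, 339 and 389 in control, 45, 37 and 59 with sgRNA1 and 64, 50 and 87 with sgRNA2. It fell by 2.66 on the log2 scale (SE 0.26, adjusted p = 0.000419 in limma), the smallest adjusted p among the members. Col16a1, next to Col4a5 in level per kb in control, counted 3698, 3214 and 3345 in control, 2596, 2233 and 2333 with sgRNA1 and 1767, 1233 and 1020 with sgRNA2. All KO libraries were below the controls, and all of sgRNA2 KO were below all of sgRNA1 KO. Pooled over the guides it fell by 0.95 on the log2 scale (SE 0.29, adjusted p = 0.0265 in limma), and missed without control replicate 1 (0.0880), 2 (0.0763) or 3 (0.0800). The difference between the guides of -0.87 (SE 0.19) missed the threshold (adjusted p = 0.778 in limma).

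Among the transmembrane collagens, which carry the triple helix outside the cell, Col23a1 counted 22, 26 and 13 in control, 55, 102 and 60 with sgRNA1 and 47, 66 and 104 with sgRNA2. It rose in 6 of 6 KO libraries (log2 fold change 1.77, SE 0.33, adjusted p = 0.00400 in limma). Col25a1, whose ectodomain is found in amyloid plaques, counted 7, 4 and 2 in control, 6, 7 and 15 with sgRNA1 and 22, 28 and 21 with sgRNA2. The groups overlapped through sgRNA1 KO replicates 1 and 2. The rise of 1.64 (SE 0.53, adjusted p = 0.0335 in limma) missed without control replicate 2 (0.0993) or 3 (0.146). It also missed without sgRNA2 KO replicate 1 (0.0526) or 2 (0.0619).

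Of the remaining kinds, Col18a1, a basement membrane collagen whose C-terminal fragment is endostatin, counted 1036, 1256 and 1298 in control, 279, 75 and 49 with sgRNA1 and 102, 63 and 38 with sgRNA2. Its KO mean was 8.44% of the control mean, and all KO libraries were far below the controls (log2 fold change -3.89, SE 0.52, adjusted p = 0.00116 in limma). Col28a1, known from the basement membranes of peripheral glia, counted 14, 13 and 10 in control, 227, 215 and 60 with sgRNA1 and 46, 435 and 112 with sgRNA2. It rose 14.8-fold on the means, with every KO library above the controls (log2 fold change 3.39, SE 0.64, adjusted p = 0.00443 in limma). Col7a1, of the anchoring fibrils of skin, counted 47, 40 and 48 in control, 88, 91 and 54 with sgRNA1 and 54, 70 and 49 with sgRNA2. The KO libraries lay just above the controls, but the log2 fold change of 0.54 (SE 0.25, adjusted p = 0.112 in limma) missed the threshold. With a spread per group it passed narrowly (adjusted p = 0.0441 in limma).

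The other 16 members stayed between 0 and 93 in every library. Of these, Col1a1, Col14a1, Col19a1 and Col26a1 were tested and missed the threshold. Col22a1 was under the filter but counted 19, 28 and 15 in control and 1 to 7 in KO, and Col2a1, the main cartilage collagen gene, 1 to 3 in control and 7 to 16 in KO; both were called when no filter on low values was used (adjusted p = 0.00424 and 0.00587 in limma). Col6a5 was called in the same setting (adjusted p = 0.0312 in limma) from counts of 2, 2 and 7 in control and 0 or 1 in KO. Col19a1 reached 93 in sgRNA2 KO replicate 3, against 6 to 15 in control. These 4 genes were singled out after their values were seen.

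**Figure D4:**
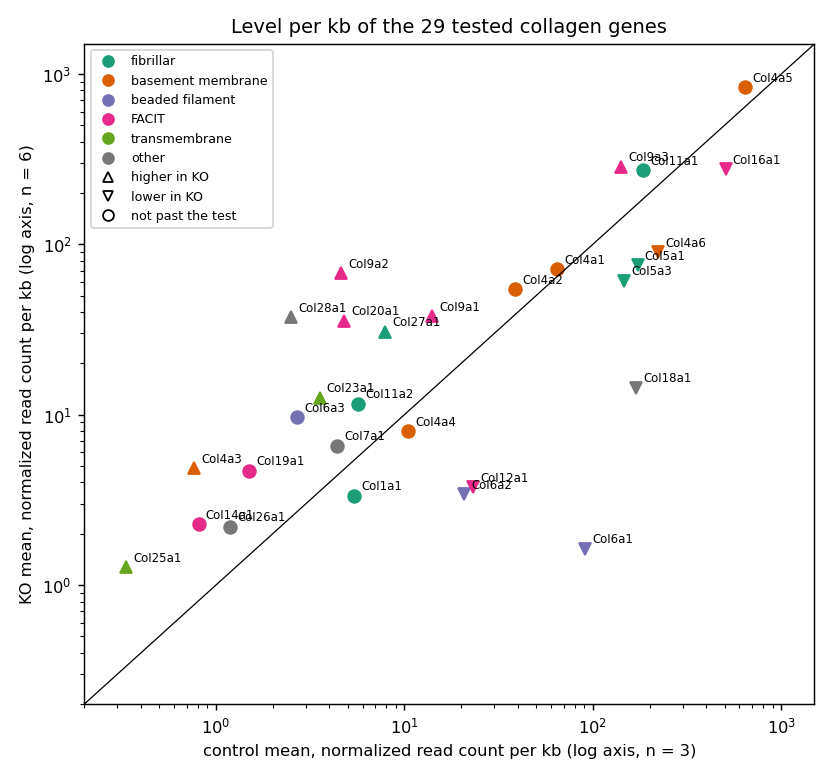
Mean normalized read count per kb of exon in control (x axis, n = 3) and KO (y axis, n = 6) of the 29 tested collagen genes, both on log axes, with color for structural class, shape for the call and a line of equal level. Col4a5 is the highest in both, and Col6a1 lies farthest below the line.

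Among the levels per kb in control, Col4a5 (644), Col16a1 (507 ± 37.1, SD, n = 3) and Col4a6 (221 ± 10.1) led, and their ranges over the 3 libraries did not overlap. Col11a1 (186 ± 14.5), Col5a1 (173 ± 19.2) and Col18a1 (170 ± 20.0) followed, with ranges that overlapped each other. In KO, Col9a3 (286 ± 63.9, SD, n = 6), Col16a1 (276 ± 94.0) and Col11a1 (271 ± 134) followed Col4a5 and could not be ordered within their spread. Col18a1 went from rank 6 to rank 15 of the 41 members, Col6a1 from 9 to 29 and Col12a1 from 12 to 23, while Col9a2 went from 20 to 8 and Col28a1 from 24 to 12.

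The members' normalized read counts summed to 0.0422% to 0.0446% of the library total in control and 0.0307% to 0.0552% in KO. Summed per kb over all members, collagen transcripts came to 2504 ± 26.2 in control and 2327 ± 486 in KO (SD, n = 3 and 6), with KO libraries from 1821 to 3064 on both sides of the controls. Beaded filament genes made up 4.15% to 5.03% of this sum in the controls and 0.166% to 1.28% in KO. Transmembrane genes made up 0.105% to 0.267% in control and 0.391% to 1.05% in KO. Basement membrane genes, a class that here holds the type IV genes only, were the largest in all 9 libraries. They made up 38.8% to 39.7% in control and 39.2% to 55.2% in KO. Col18a1, also a basement membrane collagen, was counted with the other kinds and fell from 148 to 185 per kb in control to 5.41 to 39.7 in KO. The shares of the type IV genes therefore do not describe all basement membrane collagens. The sums describe the members and were not tested.

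**Figure D5:**
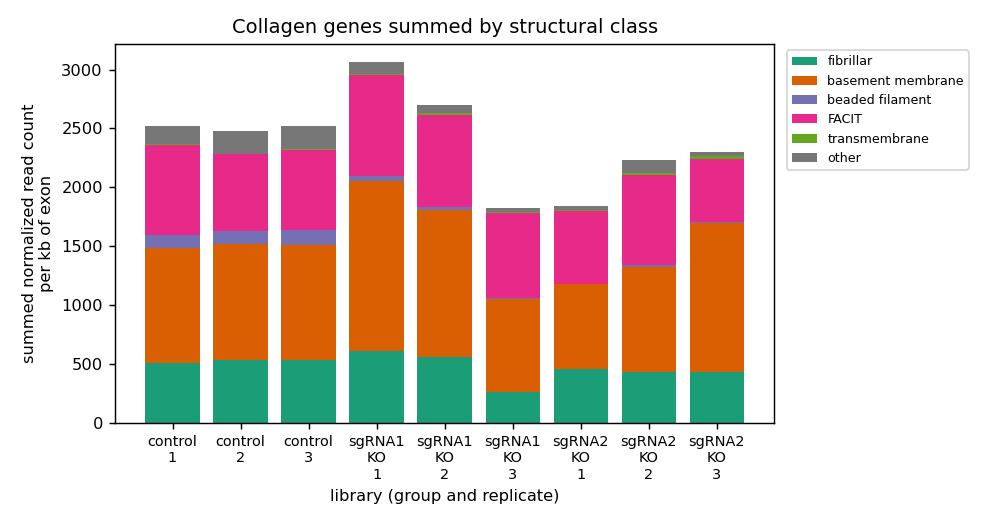
Normalized read count per kb of exon summed over the collagen genes of each structural class (colors), with 1 bar per library. The control bars run from 2474 to 2522, and the KO bars run from 1821 to 3064, with the beaded filament part thinner in every KO bar.

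Each guide was also compared with the controls, which both comparisons share. With sgRNA1, 9 of 29 members were higher (31%, against 17.1% of all genes) and 6 lower (20.7%, against 18.9%) in limma. With sgRNA2, 6 were higher (20.7%, against 11.4%) and 7 lower (24.1%, against 10.7%). Col6a1 had a log2 fold change of -5.72 (SE 0.81) with sgRNA1 and -6.58 (SE 0.81) with sgRNA2. Col18a1 had -3.55 and -4.23 (SE 0.59 each), and Col12a1 -2.90 and -2.41 (SE 0.27 each). Among the genes that rose, Col20a1 had 2.74 and 2.84 (SE 0.36 each) and Col9a3 0.89 and 1.10 (SE 0.21 each). Passing with sgRNA1 but not sgRNA2 were Col4a3, Col5a3, Col9a1, Col11a2 and Col27a1, and with sgRNA2 but not sgRNA1 Col4a6, Col16a1 and Col25a1. When the processing was varied, all of these except Col25a1 also passed with the other guide in some setting. With a spread per group, Col5a3 (adjusted p = 0.0256 in limma) and Col4a3 (0.0298) passed with sgRNA2, and Col16a1 (0.0339) with sgRNA1. Col11a2 had 1.19 with sgRNA1 (SE 0.38, adjusted p = 0.0394 in limma). It missed with the replicate block (0.0516), without control replicate 1 (0.108), 2 (0.0820) or 3 (0.118) and without sgRNA1 KO replicate 1 (0.133) or 2 (0.119). Col25a1 had 2.31 with sgRNA2 (SE 0.46, adjusted p = 0.0124 in limma) and missed without control replicate 2 (0.0571) or 3 (0.0560).

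Between the guides limma called 0 of 29 members in either direction, and 0% of all genes. At an unadjusted p under 0.05 it called 3 of 29 members and 2.99% of all genes, and the smallest adjusted p of a member was 0.778. With all 9 libraries, no difference between the guides was shown for any member, including those that passed with 1 guide only; Col11a1 passed without sgRNA1 KO replicate 3 (adjusted p = 0.0411 in limma), where 182 of all genes did. The sgRNA1 count of 9 higher became 2 and 1 without control replicates 2 and 3, 3 and 3 without sgRNA1 KO replicates 1 and 2, and 14 without sgRNA1 KO replicate 3. Calls over all genes moved the same way, from 5699 to 1267, 1541, 1952, 2348 and 7900. The sgRNA2 count of 6 higher became 3, 1 and 1 without control replicates 1, 2 and 3, and calls over all genes went from 3505 to 1320, 643 and 688.

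The KO libraries also differed among themselves whichever guide was used. The 3 that stood farthest from the controls over all genes were sgRNA1 KO replicates 1 and 2 and sgRNA2 KO replicate 2. All 3 were above the other 3 KO libraries for 7 of the 29 members (Col4a3, Col6a3, Col7a1, Col9a2, Col14a1, Col27a1 and Col28a1), against 19.9% of all genes. They were below the other 3 for 5 members (Col4a2, Col5a1, Col5a3, Col12a1 and Col19a1), against 22.9% of all genes. These libraries were singled out after their values were seen, and the members' shares lie near those of all genes.

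The genes that fold, modify and cut collagen were counted beside the chains. Of the 22 folding and modification genes, 20 were tested, 3 rose and 7 fell (median log2 fold change -0.26, against -0.01 for all genes). For this and the next 3 lists, the shares over all genes are 19.1% higher and 20.2% lower. P3h2, a prolyl 3-hydroxylase gene, fell from 855 ± 143 (SD, n = 3) to 118 ± 77.9 (SD, n = 6; log2 fold change -3.08, adjusted p = 0.00222 in limma). The prolyl 4-hydroxylase subunit gene P4ha2 (-2.13) and Crtap, of the 3-hydroxylation complex (-1.14), also fell. The lysyl hydroxylase gene Plod1 rose from 4499 ± 391 to 8433 ± 1618 (log2 fold change 0.89, adjusted p = 0.00305 in limma), as did P3h3 (0.80) and Tmem38b (0.69). Serpinh1, the collagen chaperone gene, lay at 2 to 17 in all libraries and was not tested; it was chosen after its values were seen.

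Of the 13 processing and cross-linking genes, 9 were tested, 1 rose and 4 fell (median -0.65). Adamts14, which encodes a procollagen N-proteinase, fell from 2831 ± 356 to 199 ± 196 (log2 fold change -4.75, adjusted p = 0.00734 in limma). The C-proteinase enhancer genes Pcolce2 (-2.32) and Pcolce (-1.16) fell, and Loxl3, of the lysyl oxidase family, rose (0.76). Of the 10 breakdown and uptake genes, 5 were tested and 2 fell (median -0.25), the collagen uptake receptor gene Mrc2 (-2.55, adjusted p = 0.00478 in limma) and Mmp15 (-0.69). Of the 13 collagen receptor genes, 11 were tested, 3 rose and 3 fell (median -0.0038). Lair1, an inhibitory receptor for collagen (2.42), Cspg4, which encodes a type VI collagen binding proteoglycan (1.40), and Adgrg1, an adhesion receptor for type III collagen (1.11), rose. Antxr2 (-0.57), the integrin beta chain gene Itgb1 (-0.55) and Antxr1 (-0.50) fell. The ligand of Adgrg1, Col3a1, lay at 0 to 4 in all libraries.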

How the data were processed

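Poly(A) RNA of 3 control, 3 sgRNA1 KO and 3 sgRNA2 KO libraries was sequenced. The authors deposited 1 table of normalized read counts, a score here because scaled values were rounded to whole numbers. The genome build mm10 and the tools DESeq2, featureCounts and STAR 2.4.1d are named, per the submitters' processing notes; the annotation release and the use of strand were not given in the sources used here. Raw counts were not analysed here, so no count model was run, and no interval from counting is given. A gene of few reads is measured less surely.

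Values were tested as log2(value + 1) with limma 3.58.1 (with a mean-variance trend; R 4.3.3), two-sided, with Benjamini-Hochberg adjustment over the 15827 genes whose mean across 9 libraries was 10 or more. Genes pass at an adjusted p under 0.05. A fold change on this scale understates the change of low genes. KO against control used 2 groups (6 and 3), and the guides a fit of 3 groups with 1 spread. Levels per kb used merged exons of GENCODE M21, to which 21817 genes (99.6%) matched by gene identifier. Merged exons span all annotated transcripts of a gene, so levels per kb compared between genes depend on which transcripts are made. Members with a group mean of at least 50, or past the threshold in any comparison, are given by library; list genes are named only if they passed with the 3 largest changes each way. Members, gene lists and tests were chosen with earlier results of these data known. Scripts were tested on simulated data. The pseudocount, filter, scaling, spread per group, replicate block and omission of libraries were varied.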

Additional observations from a re-analysis of the deposited data

Results flagged for a closer look

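In 3 collagen genes, 1 of the 6 KO libraries stood apart from the others, judged by its gap to the nearest other library as a share of the range (Dixon's test). Col18a1 was 279 in sgRNA1 KO replicate 1, with the other 5 at 38 to 102 (gap over range 0.734). Col6a1 was 23 in the same library, with the others at 1 to 8 (0.682). Both values remained below every control. Col9a3 was 1591 in sgRNA2 KO replicate 2, with the others at 916 to 1083 (0.753). In all, 25 members were looked at in this way. Chance alone flags about 1 in 20 groups if the values follow a normal distribution, which low counts need not do. The gaps were taken on normalized read counts, and whether they stand out on the log2 scale used in limma was not tested.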

How the results depend on the processing

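Of the 17 collagen genes called in KO against control, 10 passed in every one of 18 alternatives: Col5a1, Col6a1, Col6a2, Col9a2, Col9a3, Col12a1, Col18a1, Col20a1, Col23a1 and Col28a1. The highest adjusted p in limma among them was 0.0389, for Col9a2. Col4a6 passed in 7 of 18, Col25a1 in 10 of 17, Col27a1 in 12 of 18, Col16a1 in 14 of 18, Col4a3 in 15 of 17, and Col5a3 and Col9a1 in 16 of 18. Leaving out 1 library at a time gave 5 to 10 higher and 5 to 8 lower in KO, 1 to 14 higher and 6 to 8 lower with sgRNA1, 1 to 9 higher and 6 to 8 lower with sgRNA2, and 0 to 0 higher and 0 to 1 lower between the guides. Calls over all genes, in both directions, ranged from 2777 to 7597 in KO (6227 with all libraries), 1267 to 7900 with sgRNA1 (5699), 643 to 5480 with sgRNA2 (3505) and 0 to 182 between the guides (0). Without sgRNA1 KO replicate 3 and sgRNA2 KO replicate 1 together, 10 members were higher with sgRNA2, against 6 with all libraries. Calls over all genes with sgRNA2 rose as well, from 3505 to 6243, and the cause was not tested. The log2 fold change of Col4a1 turned to -0.0446 in that setting; with 1 library left out at a time it ran from -0.0600 (without sgRNA2 KO replicate 3) to 0.204, and it was -0.0182 without sgRNA1 KO replicate 1 or 3. It missed the threshold in each of these settings, and the cause was not tested. The replicate numbers did not pair the samples (correlations of deviations from -0.345 to 0.332). With the replicate block, 8 members were higher and 7 lower in KO, and calls over all genes fell from 6227 to 5786. Col4a6 (adjusted p = 0.0768 in limma) and Col25a1 (0.0586) then missed the threshold. With a spread per group, 11 members were higher and 8 lower in KO, and calls over all genes rose from 6227 to 8849. Rescaling moved the median of all genes by at most 0.029 (log2). Low values and the wide spread of the KO libraries limit the precision of the other members.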
